A study of Mus musculus with 6 samples.

Results

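S-opsin dominant cones were 1279 of the 38569 barcodes kept, or 3.32%, from dissociated mouse retinas at postnatal day 17 (P17). A barcode was kept with 500 to 5000 detected genes and at most 20% mitochondrial counts. Members were selected on their own counts of unique molecular identifiers (UMIs): at least 3 of the 6 cone genes Arr3, Pde6c, Gnat2, Gngt2, Pde6h and Kcne2, at least 1 UMI of Opn1sw, and more UMIs of Opn1sw than of Opn1mw. In the OIR group, nursing mothers and their pups lived in 75% oxygen between P7 and P12, with 5 further days in normal air, a course known to leave the retina short of vessels and ischemic. The control (Ctrl) group stayed in normal air. There were 3 samples in each group, each pooling the retinas of 2 mice, and no strain or genotype is stated for them. The labels call the source retinal endothelial cells of adult mice, but most barcodes carried rod genes and 27534 met the rod rule given below, so that the samples are treated here as whole retina.

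Cones are the photoreceptors of daylight and color vision. Light activates an opsin, which acts through the cone transducin (Gnat2 for the alpha subunit, Gngt2 for a gamma subunit) on the cone phosphodiesterase (Pde6c, with the inhibitory subunit Pde6h), and cone arrestin (Arr3) ends the response. Most mouse cones make both a short-wavelength opsin (Opn1sw) and a middle-wavelength opsin (Opn1mw), with Opn1sw stronger in ventral and Opn1mw in dorsal retina, and a minority make Opn1sw alone. The thyroid hormone receptor Thrb favours Opn1mw and represses Opn1sw.

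The genes that separate the classes are Opn1sw on chromosome 6 (GRCm38, 29376671 to 29388468, minus strand) and Opn1mw on chromosome X (74127464 to 74150760, plus strand). The 250 bases before each RefSeq start (GRCm38.p6) are given 5′ to 3′ because the counts of these genes define the members. The Opn1sw stretch is chr6:29380514-29380763, minus strand, inside the longer gene span above. The Opn1mw stretch is chrX:74127216-74127465, plus strand. Capitals mark TAATCC, the core letters bound by the photoreceptor homeodomain factor CRX, or its variant TTATCC, on either strand.
Opn1sw: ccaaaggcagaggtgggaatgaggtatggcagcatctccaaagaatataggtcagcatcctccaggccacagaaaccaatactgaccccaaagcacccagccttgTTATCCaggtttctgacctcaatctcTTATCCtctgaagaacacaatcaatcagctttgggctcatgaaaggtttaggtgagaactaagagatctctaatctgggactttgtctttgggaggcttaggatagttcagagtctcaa
Opn1mw: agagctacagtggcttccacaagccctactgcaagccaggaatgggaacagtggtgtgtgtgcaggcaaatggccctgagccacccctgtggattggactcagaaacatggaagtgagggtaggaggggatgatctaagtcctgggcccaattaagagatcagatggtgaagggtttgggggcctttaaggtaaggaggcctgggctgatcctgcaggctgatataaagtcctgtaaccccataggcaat
The Opn1sw stretch held 2 matches, both TTATCC, and the Opn1mw stretch 0. Either motif was in 12.1% of the 32851 promoters of that length, TAATCC in 6.25% and TTATCC in 6.34%. The motifs do not overlap each other, and a match is only a match of letters.

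OIR replicates 1 to 3 held 421, 118 and 136 members and control replicates 1 to 3 held 472, 88 and 44. The replicate 1 sample of each group thus held most of its members. Members had a median of 8225, 9725 and 8512 UMIs in the OIR and 7154, 9424.5 and 6964 in the control samples. Their counts summed to 3313280, 1192823 and 1074269 UMIs in the OIR and 3343728, 837868 and 294207 in the control samples, so that control replicate 3 was measured with the fewest molecules. Doublets were not removed. Of the 254 barcode sequences found in more than 1 library, 11 belonged to a member in at least 1 of them and 2 to members in more than 1.

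The label was checked against the cone genes, and the members proved to be of unequal quality. All 6 cone genes were detected in 873 members, 5 in 53, 4 in 81 and only 3 in 272. In OIR replicate 1 only 206 of 421 members (48.9%) had all 6, against 102 of 118 (86.4%) and 104 of 136 (76.5%) in the other OIR samples. In the control samples the numbers were 338 of 472 (71.6%), 84 of 88 (95.5%) and 39 of 44 (88.6%). Members with just 3 cone genes carried a median of 5 UMIs of the 6 genes and 1 UMI of Opn1sw in both replicate 1 samples, against 270.5 and 198.5 UMIs of the 6 genes in the members with all 6 there. These barcodes sat near the limits of the rule: 253 members led by a single Opn1sw UMI, 57 barcodes had equal counts of both opsins, and 680 met every limit but had only 2 of the cone genes.

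Opn1sw was also counted in some rods, which should lack it. Among rods, chosen as barcodes with fewer than 3 of the 6 cone genes and at least 4 of Gnat1, Pde6a, Pde6b, Cnga1, Nr2e3 and Nrl, Opn1sw was detected in 31.1%, 4.35% and 3.36% in the OIR samples and in 21.2%, 1.56% and 1.32% in the control samples. The rods had a median of 3349, 2289.5 and 2016 UMIs in the OIR and 3001, 1856 and 1426 in the control samples. The source of these UMIs in rods was not tested. A single Opn1sw UMI in a replicate 1 barcode is thus no mark of a cone there, and the label holds least for those barcodes. Results are given for all members or, chosen after seeing these data, for the 873 members with all 6 cone genes, as named with each.

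**Figure D1:**
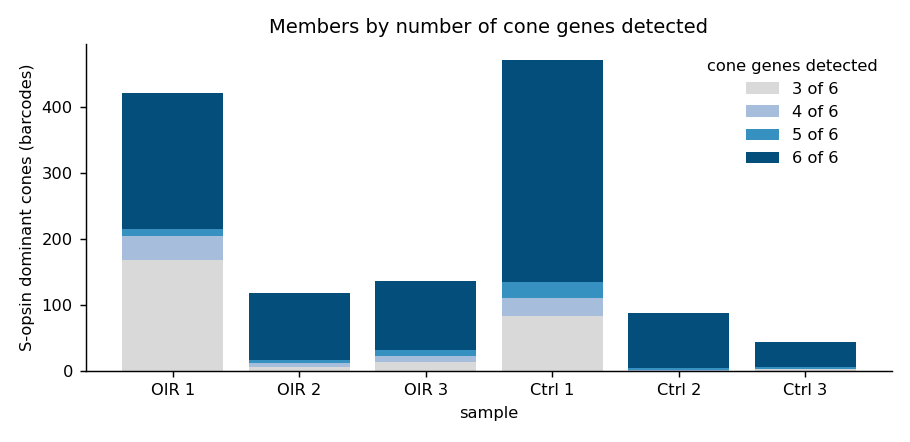
Bars give the number of S-opsin dominant cones (y axis, barcodes) in each sample (x axis), divided by how many of the 6 cone genes were detected. Members with only 3 cone genes were 168 in OIR replicate 1 and 83 in control replicate 1, and between 0 and 13 in the other samples.

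Over all members, RNA of bipolar cells and Müller glia was highest in the replicate 1 sample of each group. The summed level of 9 bipolar cell markers over all members was 5582, 539 and 538 CPM (UMIs scaled to a common total per sum) in the OIR and 2380, 153 and 272 CPM in the control samples, with Pcp2 the most abundant. In members with all 6 cone genes it was 532, 194 and 478 CPM and 639, 153 and 112 CPM, with Cabp5 the most abundant, so that it was lower in both replicate 1 samples, OIR replicate 2 and control replicate 3 and changed little in OIR replicate 3 and control replicate 2. The 8 Müller glia markers, led by Apoe, likewise summed to 2910 CPM in OIR and 1956 CPM in control replicate 1 over all members and to 948 and 1186 CPM with all 6 cone genes. Rods of these 2 libraries held bipolar markers at 2897 and 4739 CPM and Müller glia markers at 6250 and 7396 CPM, so that neither list is particular to the cones. Lens crystallins were almost confined to 1 library: the 5 lens markers, led by Cryaa, reached 214 CPM in OIR replicate 2 and at most 0.604 CPM in the other 5 samples. Every marker in these 3 lists was detected in at least 1 sample.

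The genes of the rule are described in members with all 6 cone genes. Their levels chose the members and are given without a test. Opn1sw was at 21808, 18644 and 18448 CPM in the OIR and 22139, 18401 and 17746 CPM in the control samples, and the groups overlapped. Opn1mw was lower in every OIR sample, at 2887, 3530 and 2193 CPM against 5697, 4798 and 4083 CPM. Arr3 was also lower in every OIR sample, at 1111, 1053 and 1105 CPM against 1320, 2104 and 2521 CPM. Arr3 lies on chromosome X, as does Opn1mw. Its higher control values were in control replicates 2 and 3, which held RNA of the sex-linked gene Xist, as described below. M-opsin dominant cones with all 6 cone genes had Arr3 at 1514, 1419 and 1424 CPM against 1808, 2990 and 2918 CPM. Whether the Arr3 gap goes with sex or with OIR was not tested. Gnat2, Gngt2, Pde6h, Pde6c and Kcne2 overlapped between the groups.

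UMIs of both opsins were found in 41.3%, 68.6% and 68.4% of all members in the OIR and in 68.6%, 77.3% and 68.2% in the control samples. Opn1mw was detected in 76.7%, 73.5% and 75.0% of members with all 6 cone genes in the OIR and in 87.6%, 77.4% and 69.2% in the control samples. After each cell was thinned to 1000 UMIs, which left out no cell, the shares were 63.6%, 61.8% and 59.6% in the OIR and 79.3%, 71.4% and 64.1% in the control samples. The OIR values then lay below all 3 control values, and the gap between the nearest samples was small. For background, 15.2%, 3.00% and 1.72% of rods in the OIR and 19.8%, 1.65% and 1.09% in the control samples had an Opn1mw UMI, at the lower median depths given above. The summed counts of rods held Opn1mw at 40.3, 11.5 and 7.21 CPM in the OIR and 57.6, 7.22 and 6.92 CPM in the control samples.

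The opsin balance was spread over the whole range with peaks at both ends. Among all 1667 cones with all 6 cone genes and an opsin UMI, Opn1sw made up more than 90% of the opsin UMIs in 31.9%, 25.5% and 35.3% of the OIR and 11.6%, 14.4% and 22.2% of the control cones. It made up less than 10% in 29.6%, 21.1% and 23.1% of the OIR and in 45.1%, 38.9% and 43.2% of the control cones. The groups did not overlap at either end, whereas the cones between 10% and 90% overlapped, at 38.5% to 53.4% in the OIR and 34.6% to 46.7% in the control samples. Only 110 of the 1667 cones lay between 40% and 60%, near the line that separates the classes.

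**Figure D2:**
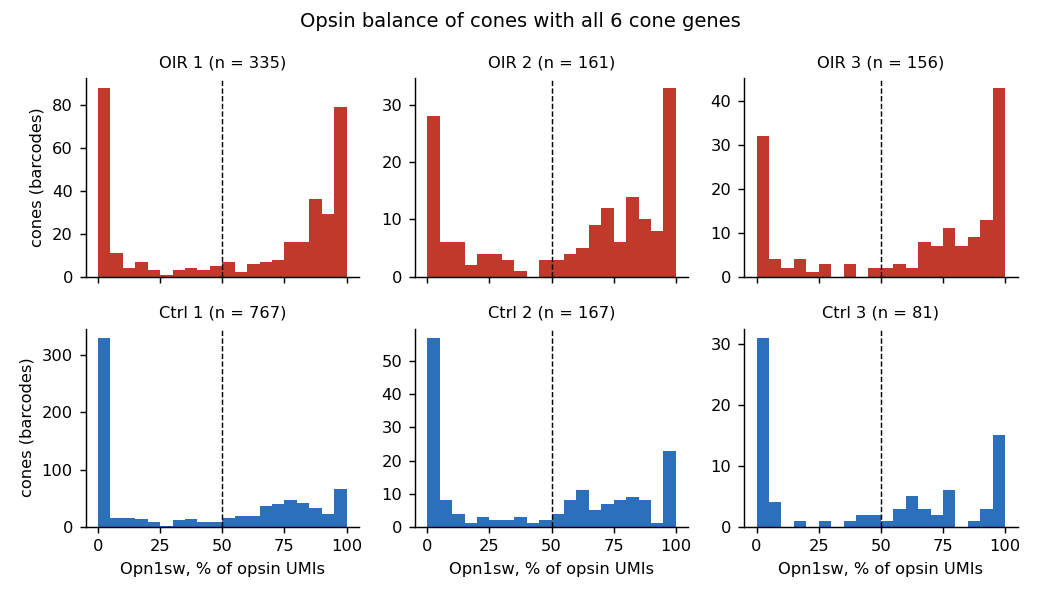
Each panel is 1 sample and shows the number of cones with all 6 cone genes (y axis, barcodes) by the percentage of their opsin UMIs that are Opn1sw (x axis). The dashed line at 50% separates M-opsin from S-opsin dominant cones, and the peak at the left end is the taller one in every control sample.

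Whether the S-opsin dominant class was larger in OIR was asked of the cones with an opsin call. Of the 3241 barcodes with at least 3 cone genes, 742 had no UMI of either opsin and stayed out of this share. They were 365 of 1058, 24 of 223 and 35 of 242 such barcodes in the OIR samples. In the control samples they were 301 of 1420, 9 of 193 and 8 of 105. S-opsin dominant cones were 63.3%, 60.2% and 66.7% of S- and M-opsin dominant cones together in the OIR samples and 43.0%, 48.1% and 45.8% in the control samples. All 3 OIR values were above all 3 control values, with means of 63.4% ± 3.23 (SD, n = 3) and 45.6% ± 2.56 (SD, n = 3). The difference of 17.8 percentage points had an exact two-sided permutation p of 0.1, the smallest p that 3 samples against 3 can give. Among cones with all 6 cone genes the shares were 61.5%, 64.2% and 67.1% in the OIR and 44.1%, 50.3% and 48.1% in the control samples, a difference of 16.7 points (exact permutation p = 0.1, n = 3 in each group). The Wilson 95% intervals of these shares, which cover counting error only, ran from 56.2% to 74.0% at their extremes in the OIR and from 37.6% to 58.9% in the control samples. Fewer cones of one class and less of its opsin RNA per cell cannot be told apart in this share.

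**Figure D3:**
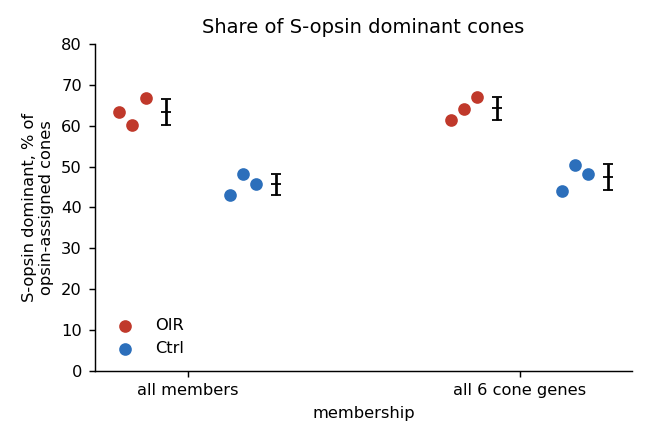
Points are samples and show S-opsin dominant cones as a percentage of all opsin-assigned cones (y axis) for all members and for cones with all 6 cone genes (x axis), with the mean and SD of each group beside them. The OIR samples lie between 60.2% and 67.1% and the control samples between 43.0% and 50.3%.

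As a share of all barcodes kept, S-opsin dominant cones overlapped between the groups. They were 6.95%, 2.14% and 1.82% in the OIR and 6.61%, 1.64% and 0.626% in the control samples. The means were 3.64% ± 2.87 (SD, n = 3) and 2.96% ± 3.20 (SD, n = 3), with an exact permutation p of 0.5. With equal replicate numbers as pairs, the OIR sample was higher in 3 of 3 pairs, with an exact permutation p of 0.25, the smallest that 3 pairs can give. Both replicate 1 samples held far more cones than the others. For members with all 6 cone genes the difference turned to -0.0671 points (exact permutation p = 0.9, n = 3 in each group).

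S-opsin dominant cones were next compared with M-opsin dominant cones of the same samples, of which there were 1163. Of 9585 genes tested outside the rule, 139 (1.45%) were higher and 108 (1.13%) lower in S-opsin dominant cones by edgeR's quasi-likelihood test with the sample as a block (calls need p below 0.05 after Benjamini-Hochberg adjustment and a change beyond 0.25 on the log2 scale). Among these, 103 were higher and 83 lower in all 6 samples. With all 6 cone genes, 196 (2.19%) of 8931 genes were higher and 181 (2.03%) lower, and 226 of the 247 genes called over all members were among them. Since the classes were cut from the opsin counts, genes that follow the opsins were bound to differ, and the p-values below describe how sharply they do.

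Ccdc136 had the lowest p. It lies on chromosome 6 (GRCm38, 29396309 to 29426994, plus strand), on the strand opposite to Opn1sw. The 2 genes are 7840 bases apart, counted from the end of the longer Opn1sw span given above. The RefSeq start of Opn1sw used for the promoter stretch lies farther away. In S-opsin dominant cones Ccdc136 was at 1006, 1693 and 1642 CPM in the OIR and 1169, 1315 and 1166 CPM in the control samples. In M-opsin dominant cones it stayed between 205 and 282 CPM in all 6 samples, so that the classes did not overlap. The log2 fold change was 2.54 (SE 0.07, edgeR adjusted p = 1.24e-19).

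En2, a homeodomain transcription factor best known from the developing midbrain, came closest to marking 1 class. S-opsin dominant cones held 70, 41 and 35 UMIs of En2 in the OIR and 111, 23 and 10 UMIs in the control samples. M-opsin dominant cones held 2 UMIs each in both replicate 1 samples and 0 in the other 4. Over the 6 samples this was 290 against 4 UMIs. The level in S-opsin dominant cones, 30.5 ± 5.21 CPM (SD, n = 6 samples), was low beside Ccdc136. The fitted log2 fold change was 5.85 (SE 0.36, edgeR adjusted p = 7.14e-12), a size that depends on the few M-opsin dominant counts.

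Next among the genes higher in S-opsin dominant cones by p, apart from Ccdc136 and En2, were 10 genes of varied function. Socs3, an inhibitor of cytokine signalling through JAK and STAT proteins, was at 57.3 to 116 CPM in S-opsin and at 0 to 22.2 CPM in M-opsin dominant cones (log2 fold change 2.45). Ngfr, the low-affinity neurotrophin receptor, was at 25.2 to 85.0 CPM against 9.78 to 22.9 CPM (1.66). Lgr5, a receptor for R-spondins that strengthens Wnt signalling, was at 45.6 to 75.5 CPM against 15.3 to 22.3 CPM (1.46). Lgr5 did not overlap between the classes, and neither did Srcin1, an inhibitor of SRC kinase (1.80), nor Syndig1l, a relative of a synaptic protein (1.86). Cacna1h, a T-type calcium channel, was at 1.31 on the log2 scale, and all genes of this ranking were taken only if higher in all 6 samples. The rest of the 12 genes with the lowest p were Rtl8a (1.00), Ssbp4 (0.75), Guca1a (0.58) and Mir124-2hg (0.56), the last a host transcript of the neuronal microRNA miR-124.

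Genes lower in S-opsin dominant cones were led by Smug1, a glycosylase that removes uracil from DNA. It was at 30.5, 26.0 and 21.4 CPM in the OIR and 30.5, 45.4 and 30.6 CPM in the control samples, against 98.3, 109 and 180 CPM and 145, 220 and 201 CPM in M-opsin dominant cones. The classes did not overlap, and the log2 fold change was -2.16 (SE 0.11, edgeR adjusted p = 5.17e-13). Myocd, a coactivator of serum response factor best known from heart and smooth muscle, gave 6 UMIs in all S-opsin and 125 in all M-opsin dominant cones, a fitted log2 fold change of -4.35 (SE 0.42). Kpna2, an importin that carries proteins into the nucleus, was at -1.24 and the muscle enolase Eno3 at -1.13. Mgst3, a glutathione transferase and peroxidase, was at -0.98, Gzmm, a serine protease, at -0.93 and Ppa1, a pyrophosphatase, at -0.74. Susd4 (-0.61), the pentraxin Nptx1 (-0.60) and Rd3l (-0.48) completed the 12 with Samd7 and Nr2f2, which are described with the transcription factors.

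**Figure D4:**
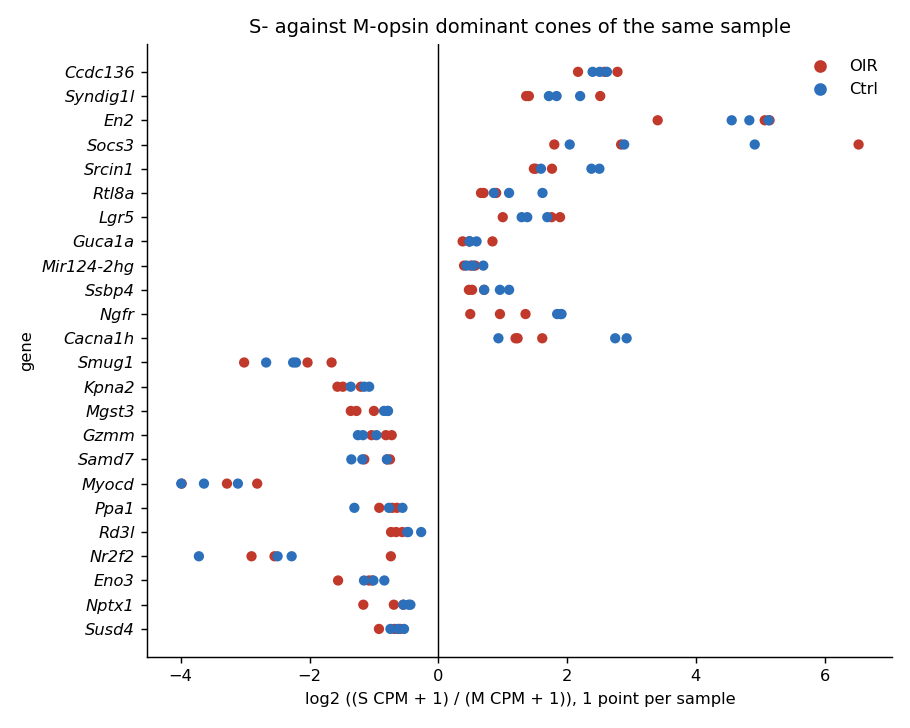
Each point is 1 sample and gives the log2 ratio of the S-opsin to the M-opsin dominant level (x axis, CPM with 1 added) for the 24 genes with the lowest p in either direction (y axis). Genes were taken only if all 6 samples lay on the same side of 0, so that this agreement comes from the selection. En2 and Socs3 reach farthest to the right and Myocd to the left.

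Of the photoreceptor transcription factors and patterning genes, 25 of 29 were tested, 4 were higher and 3 lower in S-opsin dominant cones, where 1.45% of all genes tested were higher and 1.13% lower, and the median log2 fold change was 0.087 against 0.0066 for all genes. Vax2, a homeodomain factor of the ventral retina, was at 54.0, 88.0 and 75.4 CPM in the OIR and 27.8, 50.1 and 34.0 CPM in the control samples, against 3.44 to 25.5 CPM in M-opsin dominant cones (log2 fold change 1.78, SE 0.21, edgeR adjusted p = 1.28e-06). The classes did not overlap. Fam19a3 (0.69), Samd11 (0.36) and Ccdc136 were the other genes that were higher. Thrb was lower in 6 of 6 samples, at 195 to 511 CPM against 276 to 775 CPM (-0.40, SE 0.06, edgeR adjusted p = 0.000234). Nr2f2, a nuclear receptor of the dorsal eye, was at 2.39 to 17.2 CPM against 29.3 to 53.7 CPM, a 3.99-fold difference. In OIR replicate 1, 57 of the 100 Nr2f2 UMIs of all members were found and only 3 of those remained with all 6 cone genes, where the Nr2f2 log2 fold change was -3.15 on 31 against 244 UMIs. Samd7, a Polycomb-associated repressor of photoreceptors, was at -0.95. With all 6 cone genes the retinoid receptor Rxrg was also called (0.37, edgeR adjusted p = 0.0099) and Samd11 no longer was.

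Phototransduction genes outside the rule were at most modestly different. Of 18 tested, 3 were higher and 0 lower, beside 1.45% and 1.13% of all genes, with a median log2 fold change of 0.058. Guca1a, which activates the guanylate cyclase of the outer segment, was at 3720 to 5900 CPM against 2863 to 4212 CPM, higher in 6 of 6 samples. Gnb3, the cone transducin beta subunit, was at 3321 to 4728 CPM against 2330 to 3639 CPM (0.46). Grk1, the opsin kinase, was just past both limits (0.25, edgeR adjusted p = 0.0452).

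Among rod markers, 3 were called higher: Sag (rod arrestin, 0.55), Cnga1 (rod channel subunit, 0.30) and Reep6 (0.34), where 1.45% of all genes were. Most rod markers tested stood above 0, over all members and with all 6 cone genes. Sag and Reep6 were called with all 6 cone genes too and Cnga1 was not (0.21, edgeR adjusted p = 0.0584). Members with more UMIs of the 6 rod genes than of the 6 cone genes numbered 85, 15 and 14 in the OIR and 53, 4 and 3 in the control samples, and without these and such M-opsin dominant cones Sag was still called (0.56, edgeR adjusted p = 1.31e-07), whereas Reep6 (0.17, edgeR adjusted p = 0.62) and Cnga1 (0.042, edgeR adjusted p = 0.943) were not. Sag was at 7958 ± 2254 CPM (SD, n = 6) in S-opsin and 5524 ± 1508 CPM in M-opsin dominant cones and was higher in 6 of 6 samples. Of 78 nuclear genes of oxidative phosphorylation, 2 were called higher and 1 lower, shares near those of all genes (1.45% and 1.13%), with Cox8a, a subunit of cytochrome oxidase, at 0.47. Against the same shares of all genes, cone synapse genes gave 3 higher and 0 lower of 29, with Unc13b, which primes synaptic vesicles, at 0.32. The synapse gene Syt1 was also called, as lower, with all 6 cone genes (-0.27). Outer segment and cilium genes gave 0 higher and 2 lower of 24, namely Cdhr1 (-0.31) and Rp1l1 (-0.32).

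Glycolysis depended on which members were counted. Over all members only Ldhb, a lactate dehydrogenase subunit, was lower in S-opsin dominant cones (-0.50), as 1 of 26 genes tested, beside 1.13% of all genes. With all 6 cone genes, 5 of 24 were lower and 0 higher, beside 2.03% and 2.19% of all genes, the others being Pgk1 (-0.28), Bsg (-0.28), Aldoc (-0.42) and Pfkp (-0.54). Bsg encodes basigin, the partner of lactate transporters. The median of the list was then -0.071 against -0.0040 for all genes.

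For the effect of OIR on S-opsin dominant cones, 8682 genes were tested over all members and 0 (0%) passed by edgeR's quasi-likelihood test. There were 484 genes at an unadjusted p under 0.05, and DESeq2 called 10. Of 8229 genes tested with all 6 cone genes, 6 (0.0729%) rose and 3 (0.0365%) fell. Equal replicate numbers were taken as pairs because their correlations, given with the processing, exceeded 0.1. OIR replicate 3 nevertheless correlated more with control replicate 2 than with control replicate 3, and the labels state no pairing. The calls of the block fits rest on this choice. With the replicate number as a block 71 (0.761%) of 9325 genes rose and 29 (0.311%) fell over all members. With both, 48 (0.552%) of 8688 genes rose and 27 (0.311%) fell. The groups also differed in sex-linked RNA: Xist was at 2120 and 1934 CPM in control replicates 2 and 3 and at most 0.604 CPM in the other 4 samples, and the 2 genes with the lowest p in the last fit were Xist and Tsix. In replicates 2 and 3 sex and OIR cannot be told apart. Control replicate 1 was the only control with Y-linked RNA, as all 3 OIR samples had, so a fit with a term for sex sets the OIR samples against that 1 sample and assumes that it varies like the others. Its values are given below as values, and a call that it makes or loses is no measure of stability.

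The genes that rose in the all-member block fit included genes of other cells. Trpm1, the channel of ON bipolar cells, was at 671, 62.0 and 85.6 CPM in the OIR and 231, 4.77 and 6.80 CPM in the control samples. Grm6, their glutamate receptor, was at 349, 11.7 and 28.9 CPM and 99.0, 1.19 and 0 CPM. C1qa, a complement gene of microglia, was at 108, 0 and 1.86 CPM and 29.0, 0 and 0 CPM. These genes were highest in the replicate 1 samples, and 6 of the 9 bipolar markers tested rose in that fit, where 0.761% of all genes did. In members with all 6 cone genes 0 of 8 rose with the same block, where 0.552% of all genes did. How much of the all-member calls comes from these barcodes was not tested.

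The 9 genes called with all 6 cone genes kept their direction in every fit in which they were compared, and 9 of 9 were called with the replicate block in the same members. Over all members 5 of the 9 were called with the replicate block, without 0610009B22Rik, Gm17315, Kcnj14 and Tuba4a. With replicates 2 and 3 alone 6 of the 9 were called, and with the term for sex, against control replicate 1 only, 4. Over all members without a block edgeR called 0 of them and DESeq2 called 1, Hmgb2, with the same signs in both.

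The tubulin Tubb2b, a gene of immature neurons, was at 33.6, 35.02 and 41.8 CPM in OIR and 5.48, 12.1 and 7.47 CPM in control members with all 6 cone genes. The groups did not overlap, and the rise was 4.71-fold (log2 fold change 2.23, SE 0.32, edgeR adjusted p = 0.0144). Tubb2b had 60, 39 and 40 UMIs in these OIR and only 14, 10 and 2 UMIs in these control members. Tuba4a, an alpha tubulin, was at 113, 97.0 and 96.0 CPM against 51.3, 48.5 and 37.4 CPM (1.04, SE 0.18, edgeR adjusted p = 0.0399). Both tubulins were thus higher in every OIR sample.

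Sct, which encodes the peptide hormone secretin, was at 24.1, 23.3 and 20.9 CPM in OIR and 4.70, 4.85 and 7.47 CPM in control members with all 6 cone genes (2.13, SE 0.34, edgeR adjusted p = 0.0292). These levels rest on 107 UMIs over the 6 samples. Nbl1, a secreted antagonist of bone morphogenetic proteins, was at 205, 154 and 173 CPM against 94.3, 70.3 and 52.3 CPM (1.12, SE 0.19, edgeR adjusted p = 0.0399). Hmgb2, a chromatin protein of dividing and immature cells, was at 163, 221 and 345 CPM against 103, 81.2 and 82.2 CPM (1.33, SE 0.23, edgeR adjusted p = 0.0399). The predicted gene Gm17315 rose by 1.61 on the log2 scale.

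Kcnj14, a potassium channel of the inward rectifier family, had the largest fall among the 3 genes that fell. It was at 6.17, 4.49 and 2.09 CPM in OIR and 26.2, 41.2 and 18.7 CPM in control members with all 6 cone genes, a 6.58-fold difference (log2 fold change -2.72, SE 0.39, edgeR adjusted p = 0.0144). Kcnj14 had only 11, 5 and 2 UMIs in these OIR and 67, 34 and 5 UMIs in these control members. Over all members, without a block, its log2 fold change was -1.69 (edgeR adjusted p = 0.813), and it was -2.63 without OIR replicate 1. Rods carried more of it, at 86.2, 27.5 and 24.9 CPM in the OIR and 156, 217 and 248 CPM in the control samples. Ubtd1, a ubiquitin-domain protein, fell from 142, 147 and 142 CPM to 63.9, 89.8 and 90.8 CPM (-0.89), and 0610009B22Rik fell by 1.13 on the log2 scale. Gm17315 and 0610009B22Rik are named outside the rule for named genes, to complete the 9.

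**Figure D5:**
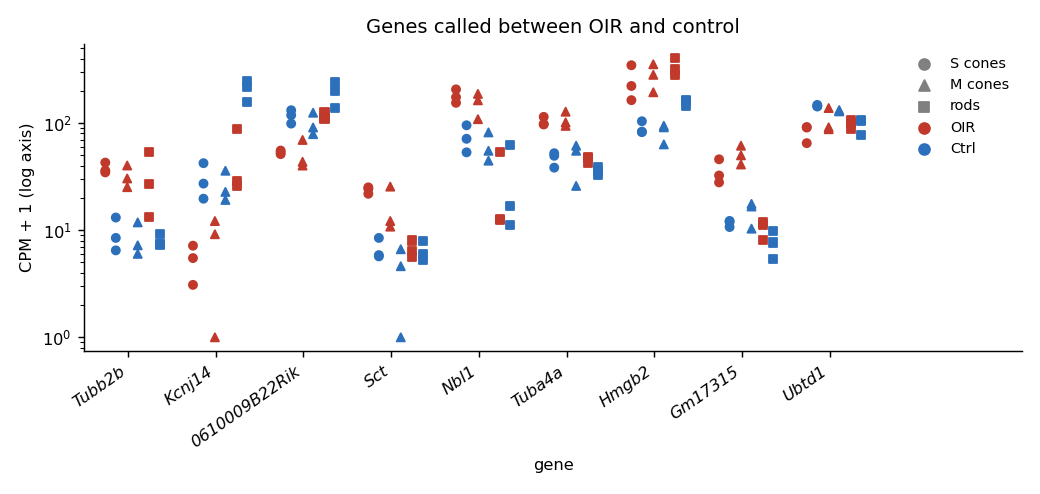
Points are samples and give the level (y axis, CPM with 1 added, log axis) of the 9 genes called between OIR and control in members with all 6 cone genes (x axis), in S-opsin dominant cones, M-opsin dominant cones and rods. In S-opsin dominant cones the OIR and control samples do not overlap for any of the 9 genes, which were called on these same values. Of all genes tested, 9.41% were higher and 5.52% lower in OIR without overlap.

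With the replicate block, further genes were called in members with all 6 cone genes. Drd4, a dopamine receptor of photoreceptors, rose from 918, 635 and 448 CPM to 1354, 1619 and 1181 CPM (1.03, SE 0.16, edgeR adjusted p = 0.00196). With the sex term, that is against control replicate 1 alone, it was at 0.54 (edgeR adjusted p = 0.515). Vax2 rose from 29.0, 50.9 and 26.1 CPM to 65.0, 89.8 and 77.2 CPM (1.05, SE 0.20, edgeR adjusted p = 0.0145), and was at 1.35 with the sex term. Irf7, a transcription factor of the interferon response, rose from 19.96, 4.85 and 3.74 CPM to 47.7, 47.6 and 30.3 CPM (1.78), and was at 1.04 with the sex term (edgeR adjusted p = 0.194). Over all members the Irf7 value without a block moved from 1.53 to 3.05 without control replicate 1. Dbp, a clock output factor, fell from 236, 170 and 220 CPM to 122, 120 and 121 CPM (-0.83, and -1.01 with the sex term). It was the 1 gene called of 12 clock genes tested, where 0.311% of all genes fell, and the median of the list was -0.29 against 0.0026 for all genes. The time of day at which retinas were taken is not given in the sources used here.

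Guca1b and Sag were called among phototransduction and rod genes in that fit, where 0.311% of all genes fell. Sag was the only rod marker called, and more rod markers stood above 0 than below. Guca1b, a second cyclase activator, fell from 352, 411 and 247 CPM to 230, 239 and 200 CPM (-0.64; with the sex term -0.71, edgeR adjusted p = 0.225), as the 1 call among 18 phototransduction genes, whose median was -0.17 against 0.0026 for all genes. Sag fell from 9679, 10163 and 9936 CPM to 5441, 8827 and 6409 CPM (-0.61, SE 0.14, edgeR adjusted p = 0.038), and was at -0.55 with the sex term (edgeR adjusted p = 0.407). Of 20 hypoxia genes tested, Ndrg1 rose (0.97; with the sex term 1.55, edgeR adjusted p = 0.0825) and Ankrd37 fell (-1.30, and -1.94 with the sex term), where 0.552% of all genes rose and 0.311% fell, with overlapping groups for both and a list median of -0.040. Over all members Ankrd37 turned to the other direction, at 0.078 without and 0.14 with the block. The hypoxia list stood mostly above 0 there, in 17 of 21 genes tested without the block (median 0.18 against 0.022 for all genes). With the block it was 16 of 21 (median 0.25 against 0.027), and 3 hypoxia genes rose, where 0.761% of all genes did. Among rod markers, that all-member block fit called only Nr2e3, as higher. With all 6 cone genes and the block, 0 of the 29 cone synapse, 23 outer segment and cilium, 17 stress and 12 immediate early genes tested were called in either direction.

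Ribosomal protein genes stood above 0 as a group. Without a block, 76 of 80 had, in members with all 6 cone genes, a log2 fold change above 0, with a median of 0.27 against 0.00043 for all genes, and 36 had an unadjusted p under 0.05, but 0 were called. In 48 of the 80 every OIR sample was above every control sample, where 9.41% of all genes tested were. Their summed level was 59829, 67667 and 65944 CPM in the OIR and 48459, 51175 and 54466 CPM in the control samples, without overlap. Rpl17 was called with the block (0.71), and was at 0.33 with the sex term (edgeR adjusted p = 0.779). In M-opsin dominant cones with all 6 cone genes the sums were 59778, 63868 and 59988 CPM against 51106, 53476 and 53582 CPM, also without overlap.

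Glycolysis genes stood below 0 with all 6 cone genes, at 21 of 24 with a median of -0.24, and 0 were called. In 7 of the 24 every OIR sample was below every control sample, where 5.52% of all genes tested were. Their summed level was 11453, 11459 and 10841 CPM in the OIR and 12939, 12989 and 12804 CPM in the control samples, without overlap. Gapdh, the most abundant, was at 2879, 3000 and 2699 CPM against 3349, 3246 and 3272 CPM (-0.26). Over all members the sum was 16688 CPM in OIR replicate 1 and overlapped, with 14 of 24 genes below 0. The 13 mitochondrially encoded genes were all below 0 (median -0.42), with mt-Nd4l called in the block fit (-0.83, and -0.72 with the sex term, edgeR adjusted p = 0.326), but their sums overlapped between the groups, at 88363, 60745 and 58846 CPM against 105101, 70132 and 78359 CPM. Both replicate 1 samples had the highest mitochondrial sums of their group. With equal replicate numbers as pairs, the OIR sum was the lower one in every pair.

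Whether OIR acted differently on the opsin classes was tested by the interaction of group and class within samples. Of 9585 genes 5 (0.0522%) were called over all members and of 8931 genes 5 (0.056%) with all 6 cone genes. Gm4792 was the only gene in both counts. In cones with all 6 cone genes it was at 1409, 1117 and 1270 CPM in the OIR and 1182, 780 and 1113 CPM in the control S-opsin dominant cones, against 655, 431 and 646 CPM and 831, 678 and 631 CPM in M-opsin dominant cones. The difference of the log2 fold changes was 0.69 (SE 0.10, edgeR adjusted p = 4.63e-06). The other 4 with all 6 cone genes were Apoe (0.90), Sparc (2.33), Fabp5 (-0.88) and Agr2 (-0.69). Sparc ran from 4.18 to 88.9 CPM within the OIR S-opsin dominant cones alone.

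None of the 9 genes called for OIR with all 6 cone genes differed between the opsin classes, with edgeR adjusted p of 0.78 or above. Tubb2b was at 24.2, 29.4 and 39.2 CPM in the OIR and 5.01, 10.8 and 6.22 CPM in the control M-opsin dominant cones, also without overlap. Tuba4a, Nbl1, Sct, Hmgb2 and Gm17315 were likewise higher in every OIR than in every control sample in M-opsin dominant cones. In the same cones 0610009B22Rik and Kcnj14 were lower without overlap, and Ubtd1 overlapped between the groups. Kcnj14 was at 11.2, 8.17 and 0 CPM against 18.2, 34.9 and 21.8 CPM there. The interval of the Kcnj14 difference is wide, with an estimate of -1.06 (SE 0.56). A gene that misses this test has not been shown to respond alike in both classes.

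Against rods, 0 (0%) of 13984 genes had a different OIR effect by edgeR over all members, with 568 at an unadjusted p under 0.05 and 5 by DESeq2. For the 9 genes the edgeR adjusted p was 0.521 or above with all 6 cone genes. Sct, at 4.32 to 7.01 CPM in rods of all 6 samples, had the largest estimated difference (2.09, SE 0.47). Hmgb2 was higher in every OIR sample in rods too, at 282, 315 and 404 CPM against 142, 162 and 160 CPM. Tuba4a and Tubb2b were likewise higher, and Kcnj14 and 0610009B22Rik lower, in every OIR sample in rods. Nbl1, Sct, Gm17315 and Ubtd1 overlapped between the groups in rods.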

How the data were processed

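Single-cell 3′ RNA libraries (10x Genomics, version 3 chemistry) were made from P17 retinas. The authors deposited raw UMI counts per gene and barcode for 31053 genes, without normalization. The matrix headers give software version 3.1.0 and the labels genome build mm10, whereas the methods name a human build, so that the mouse build was taken. Libraries held 15788524 to 42606878 UMIs.

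Counts were summed per sample and class and fitted with edgeR 4.0.16 in R 4.3.3 (TMM, filterByExpr, quasi-likelihood F-test). The 8 genes of the rule (the 6 cone genes and both opsins) were left out before adjustment. Shares were compared by exact permutation tests (SciPy 1.17.1). Levels in the text are untransformed CPM of the sums. The tests were checked on simulated counts. Named genes were up to 12 called in each direction by lowest p, without overlap between the groups or, for S against M, on the same side in all 6 samples (no sex-linked, mitochondrial or unnamed genes), up to 5 in the interactions, and list members called or most abundant. As 0 were called over all members, the rule was used for OIR on the fits with all 6 cone genes. Members, lists and alternatives were chosen with earlier results of these data known. Each sample pools its own mice, and the methods name the enrichment method and individual variation as sources of batch effects between samples. Which sample belongs to which batch is not given in the sources used here, so p-values measure the spread between these samples.

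Correlations of same-numbered OIR and control samples, as deviations from their group means over genes, were 0.659, 0.481 and 0.187 over all members and 0.234, 0.147 and 0.152 with all 6 cone genes. All exceed 0.1, so the numbers were taken as pairs by this check of the data, since the labels do not say what a number shares. OIR replicate 3 correlated more with control replicate 2 (0.562 and 0.193) than with its own number. Alternatives were DESeq2 1.42.0, no filter, TMMwsp scaling, each sample left out, a mitochondrial limit of 10%, no upper gene limit, stricter classes (at least 4 of 6 cone genes and 3 UMIs of the leading opsin), removal of cones with more rod than cone UMIs, thinning to 1000 UMIs, the replicate block and a sex term. Values of some genes are not reported here.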

Additional observations from a re-analysis of the deposited data

Results flagged for a closer look

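The OIR effect differed between S- and M-opsin dominant cones for 5 genes over all members by edgeR's interaction test. Cartpt differed by -4.94 (log2), and 742 of its 763 UMIs in control replicate 1 were in 1 barcode, with levels of 1.19 to 21.4 CPM in the other 5 samples. Ctla2a differed by 4.84, with 101 of 103 UMIs in OIR replicate 1 in 1 barcode and 0 UMIs in replicates 2 and 3 of both groups. Igfbp7 differed by 2.06, with 175 of 226 UMIs in OIR replicate 1 in 1 barcode. Cldn5, a tight junction gene of endothelial cells, differed by 2.97, with 84 of 92 UMIs in OIR replicate 1 and 192 of 304 in control replicate 1 in 1 barcode each. Gm4792 differed by 0.66 and was at 771 to 1270 CPM in S-opsin dominant cones of all 6 samples.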

How the results depend on the processing

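The share of S-opsin dominant among opsin-assigned cones was higher in OIR under all 13 alternatives run, by 15.0 to 18.0 percentage points and by 16.1 to 19.4 points with a sample left out (with the replicate block 17.8 points, exact p = 0.25, the smallest 3 pairs can give). The share among barcodes kept reversed to -0.0351 points in stricter classes and -0.0671 points with all 6 cone genes, and ran from -0.974 (without OIR replicate 1) to 2.51 (without control replicate 1) with a sample left out, -0.483 without control replicate 3. With the replicate block it was 0.682 points (exact p = 0.25). The cause was not tested.

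Genes called for OIR numbered 0 over all members and 0 without a filter, with TMMwsp scaling, a sex term, a mitochondrial limit of 10%, no upper gene limit and removal of rod-rich cones, 10 by DESeq2, 9 in stricter classes, 9 with all 6 cone genes, 100 with the replicate block, 77 with replicates 2 and 3 alone, and 0 to 4 with a sample left out (4 without control replicate 1). With all 6 cone genes they numbered 75 with the replicate block, 71 with replicates 2 and 3 alone and 35 with a sex term, which leaves control replicate 1 as the only control to set against OIR. Genes called between S- and M-opsin dominant cones numbered 247, against 113 by DESeq2, 158 at a mitochondrial limit of 10%, 415 in stricter classes, 377 with all 6 cone genes and 45 after thinning, which left 2693 genes to test. Genes called in the interaction with M-opsin dominant cones numbered 5, against 0 by DESeq2 (41 at an unadjusted p under 0.05), 22 without a filter, 8 without the upper gene limit, 9 without rod-rich cones and 1 to 32 with a sample left out (32 without OIR replicate 1, 8 without OIR replicate 3, 2 without control replicate 2, 1 without control replicate 1). In the interaction with rods they numbered 0, against 5 by DESeq2, 9 without a filter, 4 without the upper gene limit, 1 without rod-rich cones and 0 to 15 with a sample left out (15 without control replicate 1, where the median of all genes moved to 0.18, and 2 without OIR replicate 1). The replicate block was not run for these interactions, which compare classes within samples.

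Ankrd37 was at 0.078 over all members and reversed to -0.093 without the upper gene limit, -1.22 in stricter classes, -1.43 with all 6 cone genes (-0.85 with replicates 2 and 3 alone, -1.30 with the block, -1.94 with a sex term), -0.51 with a sex term and -0.68 with replicates 2 and 3 alone. With a sample left out it ran from -1.52 to 0.81, and was -0.29 without control replicate 2. In the interaction Cartpt turned to 0.053 without control replicate 1, where its other values with a sample left out reached -5.09, and was -0.028 with all 6 cone genes, and without the upper gene limit Ctla2a turned to -0.68, Igfbp7 to -0.57 and Cldn5 to -1.48. Igfbp7 turned to -0.37 in stricter classes. The 24 genes named between S- and M-opsin dominant cones gave 351 of 353 values on the same side of the threshold, the exceptions being Nptx1 (-0.56) and Susd4 (-0.58) after thinning. The depth of 294207 UMIs in control replicate 3 limits genes of low level.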

Other observations

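The control group is uneven in sex-linked RNA of these cones. Genes of the Y chromosome summed to 193, 178 and 182 CPM in OIR replicates 1 to 3 and 211 CPM in control replicate 1, and to 0 CPM in control replicates 2 and 3, which held 1776 and 569 UMIs of Xist.

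Crystallin and endothelial genes were called higher in S- than in M-opsin dominant cones without being spread over the samples. The lens markers, of which Cryaa was called, came from OIR replicate 2 as given above, and the 5 endothelial markers, of which Cldn5 was called, summed to 79.1, 5.87 and 5.59 CPM in the OIR and 193, 1.19 and 20.4 CPM in the control members. With all 6 cone genes the endothelial sum was at most 25.1 CPM. The 8 Müller glia markers, led by Apoe, summed to 948, 835 and 626 CPM in the OIR and 1186, 423 and 426 CPM in the control members with all 6 cone genes. Interferon and MHC class I genes stood above 0 for S against M over all members in 17 of 18 tested (median 0.24 against 0.0066 for all genes), with Ifitm3 and H2-Q4 called where 1.45% of all genes were called higher. With all 6 cone genes 9 of 11 stood above 0 (median 0.073 against -0.0040), with H2-Q4 called where 2.19% of all genes were.

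Red cell markers, a further 5 genes led by Hbb-bs, summed to 9.96, 4.19 and 3.72 CPM in the OIR and 40.7, 5.97 and 13.6 CPM in the control members.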
